A study of Homo sapiens with 34 samples.

Results

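The NIMA-related kinases, or NEK kinases, are a family of human serine/threonine kinases, of which the 9 genes *NEK1*, *NEK2*, *NEK3*, *NEK4*, *NEK6*, *NEK7*, *NEK8*, *NEK9* and *NEK11* were followed here by their symbols through RNA-seq of 3 B-ALL cell lines. They are 9 of the 17587 genes listed in at least 1 of the 6 comparison tables, and all 9 were among the 13307 genes listed in every table. *NEK2* and *NEK7* were set apart from the others because of their treated and control levels in these same tables. The members were therefore chosen by the values given here, and these values are a description with no test.

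NEK kinases are named after NIMA, a kinase of *Aspergillus* that is needed for entry into mitosis. NEK2 acts at the centrosome, where it loosens the linker between the centriole pairs before mitosis, and NEK9 activates NEK6 and NEK7, which help to build the spindle. NEK7 has a separate role in the assembly of the NLRP3 inflammasome, while NEK1, NEK4 and NEK8 are linked to the primary cilium and the DNA damage response, and NEK11 to the G2/M checkpoint.

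All 3 lines are established human lines of B-cell acute lymphoblastic leukemia, namely NALM-6 with the fusion ETV6-PDGFRB, RS4;11 with MLL-AF4 and BV-173 with BCR-ABL. Where 3 values follow each other without a name, the first is of NALM-6, the middle value of RS4;11 and the last of BV-173. In each line, lentivirally transduced cells with an shRNA against *CCND3* were set against transduced cells with a scrambled shRNA, both sorted on day 4, and cells given 1 µM palbociclib, an inhibitor of CDK4 and CDK6, were set against cells given the solvent DMSO, both collected after 3 days. The vector expressed the shRNA from a U6 promoter with TagRFP as the sorting marker, and a single *CCND3* shRNA sequence was used for RNA-seq. The 12 groups held 34 samples, 3 per group except for the 2 samples each of NALM-6 with *CCND3* shRNA and BV-173 with DMSO.

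Each deposited table gave 1 level per group, so no value per replicate, no SD between replicates and no depth per sample could be given. The levels of all genes summed to between 17810500 and 20756200 per group. Levels of the knockdown and palbociclib tables were scaled separately. A log2 ratio is the treated level over the control level of the same table and line, and a mean ± SD is taken over the 3 lines. A gene is said to have risen or fallen where its ratio reached 1.5-fold, a log2 ratio of 0.585 in size. *CCND3*, the target of the shRNA, had log2 ratios of −2.04, −2.27 and −1.68 with its shRNA, and of −0.36, −0.29 and −0.40 with palbociclib. The 8 B-cell precursor markers that were looked up were listed in every table, at control levels from 135 to 17673, and of their 24 pairs of gene and line 2 fell and 3 rose with *CCND3* shRNA and 6 fell and 7 rose with palbociclib. Of 7 T-cell and myeloid markers, *CD3E* and *CD3D* were listed in 2 tables and *CD8A* in 1, and none was listed at a control level above 508. Of their listed pairs 2 of 15 fell and 1 rose with *CCND3* shRNA, and 3 of 14 fell and 5 rose with palbociclib. Their summed level went from 35.9 to 32.7, from 935 to 1122 and from 239.7 to 237 with *CCND3* shRNA, and from 22.6 to 77.3, from 605 to 495 and from 210.5 to 558 with palbociclib. Its part in the values below was not tested.

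The 250 bases before the start of the gene are shown for *NEK2*, whose level moved furthest in the family, and for *NEK6*, which moved the other way, because both hold the letters CCAAT at 2 places. The sequences are from RefSeq on GRCh38.p14, the patch release of hg38, at chr1:211675622-211675871 on the minus strand for *NEK2* and chr9:124257356-124257605 on the plus strand for *NEK6*. Capitals mark CCAAT, or ATTGG where it stands on the other strand, and the last base precedes the annotated start.
NEK2: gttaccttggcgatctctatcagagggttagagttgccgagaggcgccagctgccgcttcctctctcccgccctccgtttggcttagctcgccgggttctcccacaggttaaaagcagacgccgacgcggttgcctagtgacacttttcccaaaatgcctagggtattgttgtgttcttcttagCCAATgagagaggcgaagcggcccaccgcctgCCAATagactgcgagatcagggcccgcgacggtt
NEK6: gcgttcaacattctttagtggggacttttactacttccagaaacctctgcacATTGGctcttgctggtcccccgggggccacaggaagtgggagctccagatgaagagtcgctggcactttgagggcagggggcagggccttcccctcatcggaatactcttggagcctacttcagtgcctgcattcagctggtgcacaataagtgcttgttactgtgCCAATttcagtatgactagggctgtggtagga

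In *NEK2* CCAAT began 66 and 34 bases before the start, both on the strand of the gene. In *NEK6* it began 32 bases before the start on the strand of the gene, and spanned the bases from 198 to 194 before the start on the other strand. Of 27305 gene starts, 33.0% held CCAAT on either strand in this window and 10.03% held it at 2 or more places. The 8 matched members, all except *NEK7*, were also searched on both strands for the cell cycle homology region letters TTTGAA and TTCGAA, held by 13.6% and 1.20% of all starts. No matched member held either. The searched window of *NEK3* lay within the gene span given for it below, and that of *NEK9* overlapped its span. Of the E2F-type letters, TTCCCGC was found in *NEK1* and *NEK9* and in 5.59% of all starts, and TTGGCGC in no matched member and in 2.63% of all starts. These are matches of letters in a short window and say nothing of binding.

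*NEK2* (NCBI gene 4751, chromosome 1 from 211658256 to 211675621 of GRCh38.p14) fell with palbociclib in all 3 lines. Its level went from 1906 with DMSO to 132 with palbociclib in NALM-6, from 865 to 10.4 in RS4;11 and from 815 to 138 in BV-173. This left 6.93%, 1.21% and 16.9% of the control level, or log2 ratios of −3.85, −6.37 and −2.57. Every palbociclib level lay below every control level of the gene, and the remaining level was lowest in RS4;11. The mean log2 ratio was −4.26 ± 1.94 (SD over 3 lines), and −3.21 without RS4;11. Counted from the lowest ratio, *NEK2* ranked 19 of 15614 genes in NALM-6, 13 of 15857 genes in RS4;11, and among the 14797 genes of BV-173 it ranked 11. In bulk RNA, fewer cells of a cell cycle phase and less RNA per cell cannot be told apart.

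With *CCND3* shRNA the *NEK2* level went from 1097 to 394, from 492 to 149 and from 744 to 500. The log2 ratios were −1.48, −1.72 and −0.57, a mean of −1.26 ± 0.61 (SD over 3 lines). *NEK2* thus fell in NALM-6 and RS4;11, and in BV-173 its ratio was just short of 1.5-fold. In each line the knockdown ratio was nearer to 0 than the palbociclib ratio, by 2.38, 4.65 and 1.99 on the log2 scale (mean 3.01 ± 1.44, SD over 3 lines). The treatments also differed in cell sorting, in time and in their controls. The log2 ratio of the scrambled over the DMSO level of *NEK2* was −0.80, −0.81 and −0.13, between tables scaled separately. Of 3135 words of 50 bases in *NEK2* transcripts, 6.57% also stood in transcripts of other genes, with the pseudogene *NEK2P1* first among them, so a small part of its reads could be assigned elsewhere.

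**Figure D1:**
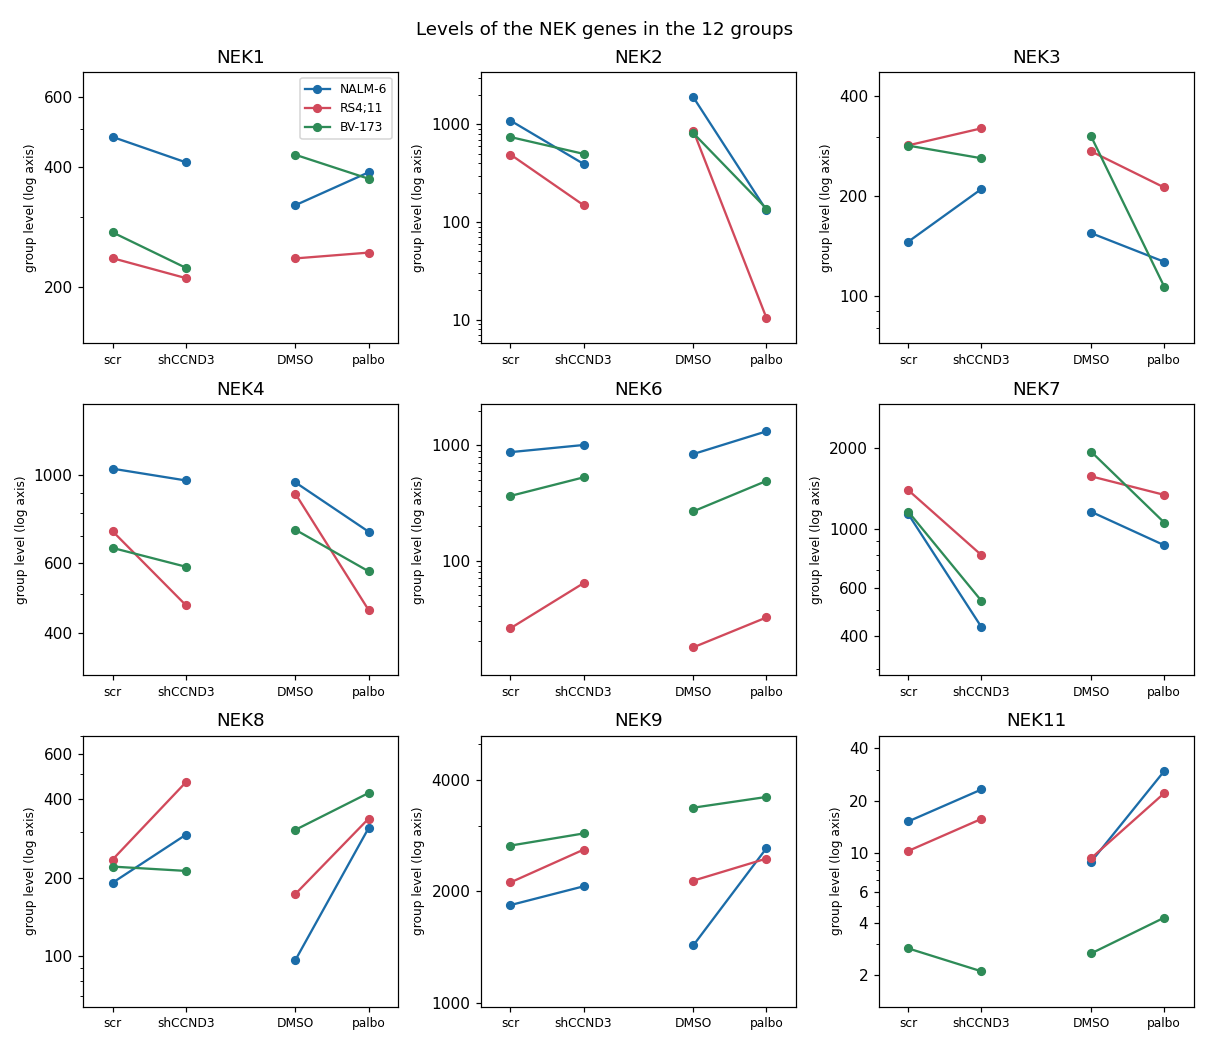
Level of each NEK gene in the 12 groups (vertical log axis, the deposited group level, each panel with its own range, where scr is scrambled shRNA and palbo is palbociclib). Lines join the control and treated group of 1 cell line, each point being 1 deposited group value with no replicate spread. *NEK2* in RS4;11 dropped to 10.4 with palbociclib, and *NEK7* was lower with *CCND3* shRNA in every line.

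*NEK7* (NCBI gene 140609, chromosome 1 from 198156998 to 198322420) showed the reverse order of the treatments. With *CCND3* shRNA its level went from 1136 to 431 in NALM-6, from 1395 to 799 in RS4;11 and from 1160 to 539 in BV-173. *NEK7* fell in all 3 lines, to 37.9%, 57.3% and 46.5% of the scrambled level, and every knockdown level lay below every scrambled level. The log2 ratios were −1.40, −0.80 and −1.10, a mean of −1.10 ± 0.30 (SD over 3 lines). Its rank from the lowest ratio was 115 of 15409 genes, 879 of 15944 and 34 of 14763. In the same comparisons *NEK2* ranked 68, 142 and 753, so it was lower than *NEK7* in NALM-6 and RS4;11.

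With palbociclib the *NEK7* level went from 1159 to 869, from 1571 to 1340 and from 1942 to 1056. The log2 ratios were −0.41, −0.23 and −0.88, so that *NEK7* fell in BV-173, and in the other lines its ratio was under 1.5-fold. Their mean was −0.51 ± 0.33 (SD over 3 lines), and −0.32 without BV-173. The knockdown ratio was below the palbociclib ratio in each line, with differences of −0.98, −0.57 and −0.23. The mean difference of −0.59 ± 0.38 (SD over 3 lines) was just past 1.5-fold and was −0.40 without NALM-6. In BV-173 the log2 ratio of the scrambled over the DMSO level was −0.74, larger in size than the difference between the treatments in that line. The control levels of *NEK7* in NALM-6, 1136 and 1159, were nearly equal. No 50-base word of *NEK7* transcripts stood in a transcript of another gene, and no word was shared between any members.

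**Figure D2:**
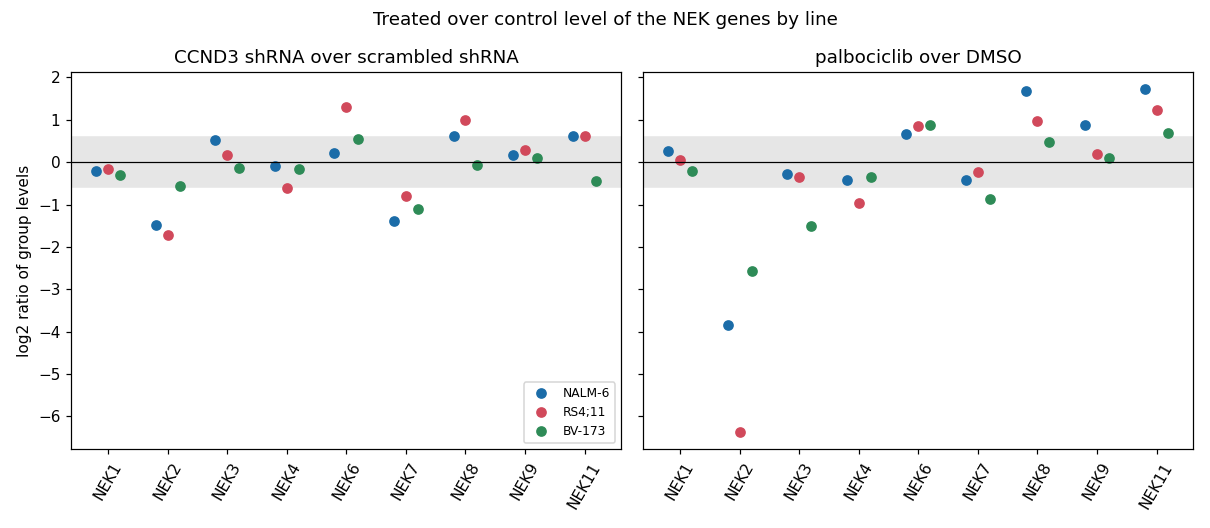
Log2 ratio of treated over control level (vertical axis) of the 9 NEK genes (horizontal axis) with *CCND3* shRNA (left) and palbociclib (right), 1 point per cell line. The grey band marks ratios under 1.5-fold. *NEK7* lay below the band in all 3 lines at left and in BV-173 at right, and *NEK2* lay between −6.37 and −2.57 at right.

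*NEK6* and *NEK9* belong to the same mitotic module as *NEK7*. *NEK6* (NCBI gene 10783, chromosome 9 from 124257606 to 124353307), the closest relative of *NEK7*, rose with palbociclib in all 3 lines, from 841 to 1324, from 17.6 to 32.1 and from 267 to 491. The log2 ratios were 0.66, 0.86 and 0.88, with a mean of 0.80 ± 0.12 (SD over 3 lines). With *CCND3* shRNA the level went from 874 to 1008, from 25.8 to 63.7 and from 364 to 528. *NEK6* rose in RS4;11, with a log2 ratio of 1.30, and had ratios of 0.21 in NALM-6 and 0.54 in BV-173 (mean 0.68 ± 0.56, SD over 3 lines). *NEK6* was also the member whose level differed most between the lines. The scrambled level in RS4;11 was lower than that in NALM-6 by 33.8-fold and the DMSO level by 47.7-fold, each across tables scaled separately. No other member except *NEK11* exceeded a 3.17-fold range between the lines within a kind of control.

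*NEK6* was above and *NEK7* below its control level in every comparison. Per kilobase of transcript, on the reading that the deposited level is not yet divided by length, the level of *NEK6* over that of *NEK7* went from 1.20 to 3.66, from 0.0292 to 0.126 and from 0.491 to 1.53 with *CCND3* shRNA. With palbociclib it went from 1.13 to 2.38, from 0.0175 to 0.0374 and from 0.215 to 0.728. The ratio was thus higher in the treated group in 6 of 6 comparisons. The log2 ratio of *NEK6* less that of *NEK7* lay between 1.07 and 2.11. *NEK7* remained the more abundant per kilobase in RS4;11 in every group.

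*NEK9* (NCBI gene 91754, chromosome 14 from 75079353 to 75127202), the upstream kinase of this module, rose only with palbociclib in NALM-6 among the 6 comparisons, from 1429 to 2617 (log2 ratio 0.87). Its other palbociclib ratios were 0.20 in RS4;11 and 0.10 in BV-173. The knockdown ratios were 0.17, 0.29 and 0.11, so that all 6 treated levels were above their control, 5 of them by under 1.5-fold. Of its exonic bases, 9.08% overlap other genes on the opposite strand.

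*NEK8* (NCBI gene 284086, chromosome 17 from 28728788 to 28743455), a kinase of the primary cilium, rose with both treatments in NALM-6 and RS4;11. With *CCND3* shRNA its level went from 191 to 292, from 235 to 465 and from 221 to 212 (log2 ratios 0.61, 0.99 and −0.06). With palbociclib it went from 96.5 to 310, from 173.2 to 337 and from 306 to 424 (1.69, 0.96 and 0.47). The 3 palbociclib levels of *NEK8* lay above all 3 DMSO levels. In NALM-6 the log2 ratio of the scrambled over the DMSO level was 0.99, more than the knockdown ratio in that line, which was just past 1.5-fold. Of 4412 exonic bases of *NEK8*, 18.8% overlap other genes on the opposite strand, among them *TLCD1*.

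*NEK11* (NCBI gene 79858, chromosome 3 from 131026877 to 131350465), which takes part in the degradation of CDC25A in the G2/M checkpoint, was the lowest member in 11 of the 12 groups per kilobase. With palbociclib its level went from 8.94 to 29.6, from 9.36 to 22.1 and from 2.66 to 4.27, and it rose in all 3 lines (log2 ratios 1.73, 1.24 and 0.68). With *CCND3* shRNA it went from 15.2 to 23.2, from 10.3 to 15.7 and from 2.85 to 2.10 (0.61, 0.61 and −0.44), the rises in NALM-6 and RS4;11 being just past 1.5-fold. The mean knockdown ratio was 0.26 ± 0.60 and the mean palbociclib ratio 1.22 ± 0.52 (SD over 3 lines). The number of reads behind levels this low is unknown. With palbociclib in BV-173, ratios had an SD of 0.30 for genes with a mean level under 3 and 0.60 for those over 200. That smaller spread does not show that low levels give precise ratios. *NEK11* itself, at 2.66 and 4.27 in that comparison, had a mean level above 3 and was in neither class. The *NEK11* levels of NALM-6 and RS4;11 were all above 3.

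*NEK4* (NCBI gene 6787, chromosome 3 from 52708444 to 52770940), linked to the cilium and the response to DNA breaks, fell in RS4;11 with both treatments. Its level there went from 720 to 469 with *CCND3* shRNA and from 895 to 456 with palbociclib (log2 ratios −0.62 and −0.97). In NALM-6 and BV-173 the ratios were −0.10 and −0.16 with knockdown and −0.41 and −0.35 with palbociclib. Of 6393 exonic bases of *NEK4*, 42.3% overlap *SPCS1*, a signal peptidase subunit, on the opposite strand, and the strand setting of the libraries is not given in the sources used here. The log2 ratios of *SPCS1* were −0.16, 0.19 and 0.42 with *CCND3* shRNA and −0.37, 0.26 and 0.24 with palbociclib, of the sign of *NEK4* in NALM-6 and of the other sign in RS4;11 and BV-173. The part of reads from *SPCS1* in the *NEK4* values was not tested.

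*NEK3* (NCBI gene 4752, chromosome 13 from 52132647 to 52159860) fell with palbociclib in BV-173, from 302 to 106 (log2 ratio −1.50). In NALM-6 and RS4;11 its palbociclib ratios were −0.29 and −0.36, and its knockdown ratios were 0.53, 0.17 and −0.13. The BV-173 palbociclib level of *NEK3* was the lowest of its 12 group levels, and the mean palbociclib ratio was −0.72 ± 0.68 (SD over 3 lines). *NEK1* (NCBI gene 4750, chromosome 4 from 169392809 to 169612583), a kinase of the cilium and of DNA repair, passed 1.5-fold in no comparison. Its knockdown ratios were −0.21, −0.17 and −0.30, and its palbociclib ratios were 0.27, 0.05 and −0.20.

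Counted over the 9 members, 6 of the 27 pairs of gene and line fell and 5 rose with *CCND3* shRNA, and 6 fell and 9 rose with palbociclib. *NEK5* and *NEK10*, given at the end, are not in these counts. With *CCND3* shRNA in NALM-6, 2 of 9 members fell and 2 rose, beside 8.47% and 7.82% of all 15409 listed genes. In RS4;11, 3 fell and 3 rose, beside 9.72% and 9.73% of all 15944 genes. In BV-173 *NEK7* alone fell and no member rose, beside 4.78% and 3.32% of 14763 genes. With palbociclib in NALM-6, *NEK2* fell and 4 members rose, beside 14.9% and 21.4% of 15614 genes. In RS4;11, 2 fell and 3 rose, beside 15.0% and 16.7% of 15857 genes. In BV-173, 3 fell and 2 rose, beside 11.9% and 13.6% of 14797 genes. Since the members were picked with these tables known, nothing is read from the counts. The median ratio of the 9 members was 0.17, 0.17 and −0.16 with *CCND3* shRNA and 0.27, 0.05 and −0.20 with palbociclib. All listed genes had medians of 0.01, 0.01 and −0.01, and 0.06, 0.01 and 0.04.

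The 2 controls of a line differed as well. Between scrambled shRNA and DMSO, 6 of the 27 pairs of member and line differed by at least 1.5-fold, as did 25.1% of all genes in NALM-6 cells, 18.5% of those in RS4;11 cells and 20.9% of those in BV-173 cells. The 6 pairs were *NEK2* in NALM-6 and RS4;11, *NEK8* and *NEK11* in NALM-6, and *NEK1* and *NEK7* in BV-173. How much of a difference between knockdown and palbociclib ratios comes from the controls was not tested.

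**Figure D3:**
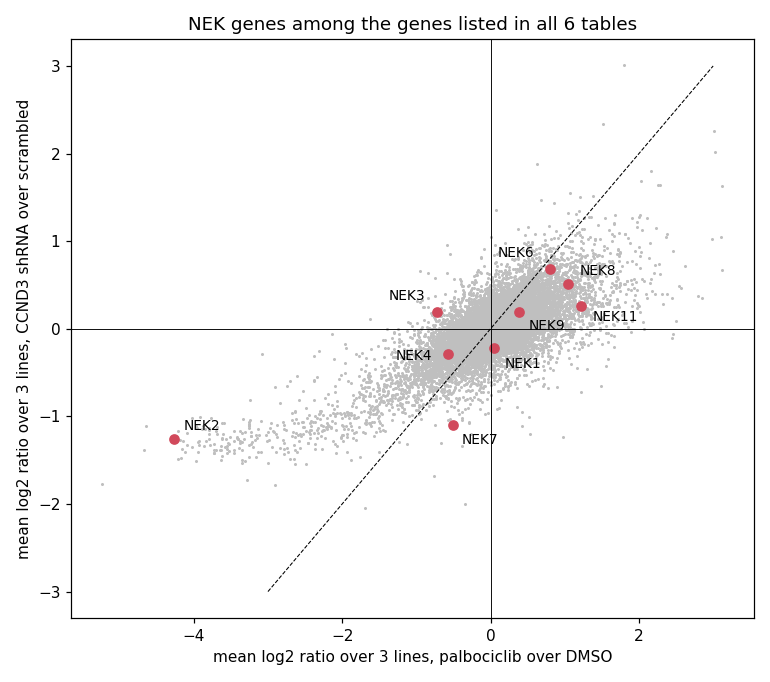
Mean log2 ratio over the 3 lines with palbociclib (horizontal axis) and with *CCND3* shRNA (vertical axis) for the 13307 genes listed in every table (grey) and the 9 NEK genes (red). On the dashed diagonal both means are equal, while *NEK2* lay at −4.26 and −1.26, and *NEK7* at −0.51 and −1.10.

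Levels of different genes were compared within a group per kilobase of transcript. The sources used here do not say whether the deposited level is already divided by length, and it was taken not to be, so the shares and orders per kilobase hold under that reading alone. Per kilobase *NEK2* had the highest level of the 9 members in both NALM-6 controls and in RS4;11 with DMSO, and *NEK9* in the other controls. In RS4;11 with scrambled shRNA *NEK9* and *NEK7* were nearly equal, at 337.48 and 337.4 per kilobase. *NEK2* made up 43.3% of the summed level of the 9 members in NALM-6 with DMSO and 4.01% with palbociclib. In RS4;11 its share went from 26.7% to 0.467%, which made it the lowest of the 9, and in BV-173 from 19.4% to 4.37%. With *CCND3* shRNA its share went from 27.7% to 12.5%, from 17.2% to 6.06% and from 22.0% to 17.0%. *NEK7* went with *CCND3* shRNA from 14.6% to 6.93%, from 24.9% to 16.6% and from 17.7% to 9.48%. With palbociclib its share went from 13.0% to 13.1%, from 23.7% to 29.2% and from 23.8% to 17.3%. A share also depends on the other members, and in RS4;11 *NEK7* itself went from 380 to 324 per kilobase while its share was higher. The summed level of the 9 members per kilobase was lower in the treated group in all 6 comparisons. In NALM-6 it was 2152 with DMSO and 1610 with palbociclib. There *NEK2* went from 932 to 64.6, a larger drop than that of the sum, so the other members together were higher. In the other comparisons the other members together were lower as well.

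**Figure D4:**
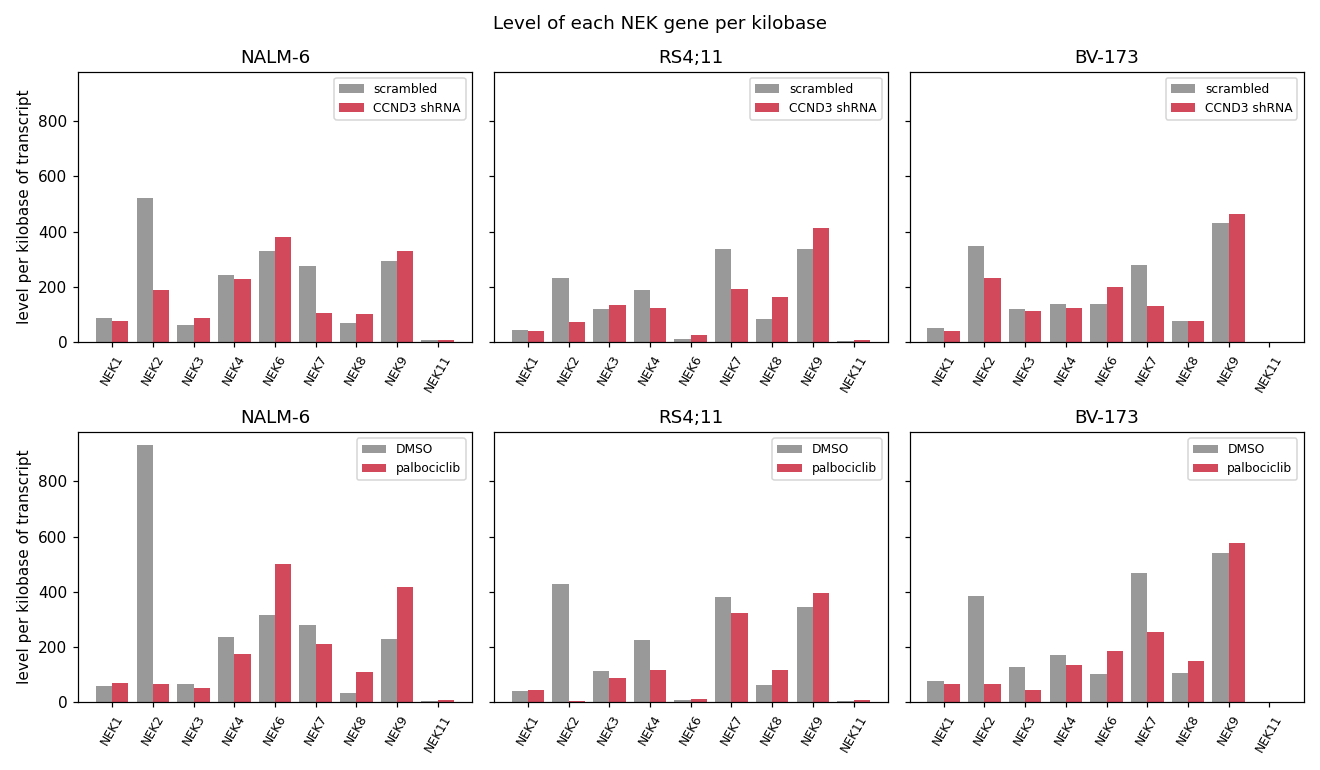
Level per kilobase of transcript (vertical axis, from 0) of the 9 NEK genes in the control group (grey) and the treated group (red), with *CCND3* shRNA above and palbociclib below, for the 3 lines. Bars are single deposited group values with no error, and in NALM-6 the *NEK2* bar dropped from 932 to 64.6 with palbociclib.

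Other kinases of mitosis gave a measure for *NEK2*. All 12 that were looked up fell with palbociclib in each line, and with *CCND3* shRNA all 12 fell in NALM-6 and RS4;11 and 7 in BV-173. Their median log2 ratio was −1.39, −1.62 and −0.63 with *CCND3* shRNA and −3.25, −4.52 and −1.83 with palbociclib. With *CCND3* shRNA *NEK2* lay within their range, with 3, 3 and 7 of the 12 below it. With palbociclib only *PBK*, a mitotic kinase, was below it in NALM-6, at −4.18, and no kinase of the list was below it in RS4;11 or BV-173. *PLK4*, which drives centriole duplication, had mean log2 ratios of −1.38 with *CCND3* shRNA and −3.45 with palbociclib, *AURKB*, a kinase of the centromere, had −1.14 and −3.89, and *PLK1* had −1.02 and −3.77. The palbociclib ratios of *NEK7*, −0.41, −0.23 and −0.88, were each nearer to 0 than that of any of the 12 kinases in the same line. With *CCND3* shRNA the place of *NEK7* differed by line. In NALM-6, at −1.40, it lay within the range of the 12, from −1.50 to −1.10. In RS4;11, at −0.80, it was above all 12, the highest of which was *WEE1* at −1.03. In BV-173, at −1.10, it was below all 12, the lowest of which was *PLK4* at −0.81.

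**Figure D5:**
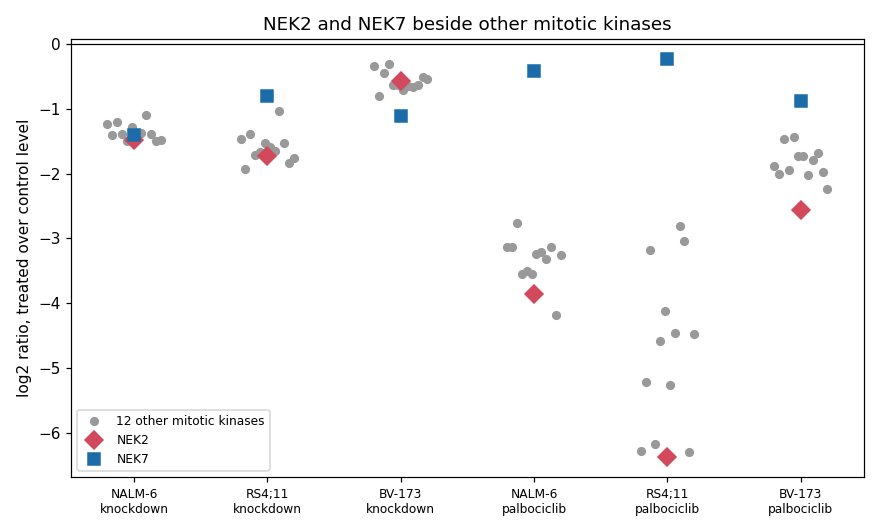
Log2 ratio of treated over control level (vertical axis) of *NEK2* (red diamond), *NEK7* (blue square) and 12 other mitotic kinases (grey points, spread sideways for sight) in the 6 comparisons. *NEK2* lay within the range of the kinases with *CCND3* shRNA and at their lower edge with palbociclib, and *NEK7* lay above all of them with palbociclib.

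Among genes of mean level 100 or more in all tables, 10065 in number, the gene most like *NEK2* over the 6 log2 ratios was *HJURP*, the chaperone of the centromeric histone CENP-A, with a root mean square difference of 0.183. It was followed by *NUF2*, a kinetochore subunit, at 0.202, *TOP2A*, a DNA topoisomerase, at 0.239, *DLGAP5*, a spindle protein, at 0.264 and *DEPDC1* at 0.272. For *NEK7* the nearest was *ZNF254*, a zinc finger gene, at 0.203, whose knockdown ratios were −0.92, −0.76 and −1.01 and whose palbociclib ratios were −0.41, −0.17 and −0.88. Then came *IGF2BP3*, an mRNA-binding protein, at 0.241, *C1GALT1*, an enzyme of O-glycan synthesis, at 0.329, *PTBP3*, a splicing regulator, at 0.329 and *BNIP2* at 0.341. The likeness rests on 6 ratios that share their lines.

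Genes that act with NEK2 were looked up next. For the lists that follow, the share of all pairs of gene and line that fell was 7.72% with *CCND3* shRNA and 14.0% with palbociclib, and the share that rose was 7.04% and 17.3%. Of 36 pairs of gene and line in a list of 12 partners, 8 fell and 2 rose with *CCND3* shRNA, and 13 fell and 3 rose with palbociclib. *NDC80*, a kinetochore substrate of NEK2, fell in all 6 comparisons, with mean log2 ratios of −1.31 and −3.37, and *SGO1*, which protects centromeric cohesion, had −1.29 and −3.21. *STK3*, the Hippo pathway kinase upstream of NEK2, fell with palbociclib in all 3 lines (mean −1.01), and *PPP1CC*, a phosphatase that opposes NEK2, had a mean of −0.63. These are the genes of the list with the largest mean ratios. Of the centrosome linker genes, *CEP68* had means of 0.53 with *CCND3* shRNA and 0.48 with palbociclib, and *CROCC* 0.21 and 0.43. *CEP250* had −0.17 and 0.10, *LRRC45* −0.51 and −0.59, and *CEP85* −0.50 and −0.60. The median of the whole list lay between −0.36 and −0.12 over the 6 comparisons.

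In the list of 10 genes around NEK9, NEK6 and NEK7, 13 of 30 pairs fell and none rose with *CCND3* shRNA, and 16 fell and 2 rose with palbociclib. *CDK1* and *PLK1*, the kinases upstream of NEK9, had mean palbociclib ratios of −3.23 and −3.77, and the spindle motor *KIF11*, a substrate of NEK6 and NEK7, had −3.20. *TUBG1*, the γ-tubulin of the spindle poles, had −0.74 with *CCND3* shRNA and −1.39 with palbociclib. The median of the list lay between −0.96 and −0.29, while *NEK9* and *NEK6* were above their control in all 6 comparisons.

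For the 7 genes of the NLRP3 inflammasome, in which NEK7 binds NLRP3, no pair fell with either treatment, and the median of the list lay between −0.01 and 0.55. With *CCND3* shRNA 2 of 21 pairs rose, and with palbociclib 6 of 20, beside 7.04% and 17.3% of all pairs. *NLRP3* itself had knockdown ratios of −0.18, 0.03 and 0.23. Its palbociclib ratios were 1.94, 0.07 and −0.22. *IL1B*, the cytokine matured by the complex, had 1.93, 0.83 and −0.14 with palbociclib, and *TXNIP*, which binds NLRP3, had 0.95, 1.09 and 0.09. *PYCARD*, the adaptor, had a mean of 0.52 with *CCND3* shRNA and 0.23 with palbociclib.

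Of the cilium partners, 1 of 23 pairs fell and none rose with *CCND3* shRNA, and 1 fell and 6 rose with palbociclib. *CFAP410*, a partner of NEK1, rose in all 3 lines with palbociclib (mean 1.20 ± 0.15, SD over 3 lines) and had a mean of 0.15 with *CCND3* shRNA. *ANKS3*, which binds NEK7 and NEK8, had a mean of 0.36 with palbociclib, the ciliary motor gene *KIF3A* 0.42 and *RPGRIP1L*, a NEK4 partner, −0.08. Of the DNA damage partners, 12 of 24 pairs fell with *CCND3* shRNA, 17 fell with palbociclib and none rose with either. *CHEK1*, the checkpoint kinase, had means of −1.26 and −2.99, and *CDC25A*, the phosphatase targeted through NEK11, −1.16 and −2.28. *RAD54L*, a recombination gene, had −1.42 with *CCND3* shRNA and −3.56 with palbociclib. The median of the list lay between −2.12 and −0.50, and that of the cilium partners between −0.19 and 0.35.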

How the data were processed

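Libraries were made from oligo dT-enriched RNA of 34 samples. Reads were filtered (SOAPnuke), mapped to hg38 (Bowtie2) and turned into levels (RSEM) by the authors, who compared groups with DESeq2. Versions and strand are not given in the sources used here. The authors' deposited tables hold a signal per gene and group (a scaled level), the transcript length, and the authors' own log2 fold changes, p-values, adjusted p-values and direction calls, which were not used. With 1 signal per group, no test was run, and depth per sample is unknown.

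Log2 ratios of the 2 signals of a table were computed without a pseudocount or filter. Ratios of at least 1.5-fold were counted over the members and over all genes. The 9 members were named, with *CCND3*, up to 4 genes of each list by largest mean ratio, and the 5 genes nearest to *NEK2* and to *NEK7*. *SPCS1*, *TLCD1*, *NEK2P1*, *NEK5* and *NEK10* were named after their values were seen. Among the genes of this rule, 1 is not reported here. Members and lists were chosen with earlier results of these data known. Sequences and positions are from RefSeq (GRCh38.p14), and shared words and exon overlaps from GENCODE 44. Python 3.11.15, numpy 2.4.6, pandas 2.3.3 and matplotlib 3.10.9 were used. The computation of ratios and of 1.5-fold calls, but no other step, was tested on simulated data with planted ratios and no noise.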

Additional observations from a re-analysis of the deposited data

How the results depend on the processing

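The counts of members that rose or fell were recomputed with other fold thresholds, centring on the median of all genes, level minimums and a pseudocount. The 5 rises with *CCND3* shRNA became 1 at 2-fold, 2 at a mean level of at least 100 and 3 with a pseudocount of 10, while the share of all pairs of gene and line that rose went from 7.04% to 1.99%, 6.10% and 4.99%. The 6 falls with palbociclib became 10 at the lower fold threshold tried, and the 9 rises with palbociclib became 3 at 2-fold and 5 at a mean level of at least 100. Over all genes the falls went from 14.0% to 24.8%, and the rises from 17.3% to 7.82% and 12.9%. At 2-fold the 6 falls with *CCND3* shRNA and the 6 with palbociclib each became 4, beside 7.72% to 2.53% and 14.0% to 6.33% of all pairs. The remaining counts of members moved by less than 1.5 times. Centring and the pseudocount moved the mean ratios and differences of *NEK2* and *NEK7* by less than their SD over lines. With 3 lines, leaving 1 out or taking the median cannot move a mean by more than its SD, so those settings decide nothing. Without 1 line the mean palbociclib ratio of *NEK2* lay between −5.11 and −3.21, and the mean difference of *NEK7* between −0.78 and −0.40. The mean difference of *NEK7* was −0.56 after centring, under 1.5-fold. By Pearson correlation in place of the root mean square difference, 1 of the 5 genes nearest to *NEK2* and 0 of those nearest to *NEK7* stayed, and at a mean level of at least 10 all 5 of each stayed. No paired analysis was possible because each table gives 1 value per group, and for the same reason no replicate could be left out.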

Other observations

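Outside the 9 members, *NEK5* and *NEK10* were listed in all 6 tables and were looked up after the other values were seen. With palbociclib *NEK5* rose in all 3 lines, from 54.3 to 121 in NALM-6, from 155 to 256 in RS4;11 and from 48.6 to 91.9 in BV-173 (log2 ratios 1.16, 0.72 and 0.92). With *CCND3* shRNA its ratios were 0.57, 0.12 and −0.23. *NEK10* was listed at levels of about 2 to 10. Its palbociclib ratios were 2.03, 1.29 and 0.76, and its knockdown ratios were 0.45, 0.47 and −0.24.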
